A study of Mus musculus with 15 samples.

Results

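The 8 wild-type (WT) ovaries of this series were all labelled as estrus, yet the normalized count of Star in them ran from 5151 to 47695. Star encodes the protein that carries cholesterol to the inner mitochondrial membrane, the entry step of steroid synthesis. The 8 ovaries were grouped by this measured value: an ovary with fewer than 10000 normalized counts of Star was called Star-low and the others Star-high. This put 3 of the 8 WT ovaries in the Star-low group and 5 in the Star-high group, out of 15 ovaries in all. WT 7, with 6635 normalized counts, was the Star-low ovary nearest to the border, and WT 1, with 18097, the Star-high ovary nearest to it.

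The study compared ovaries of homozygous HSD17B1-KI females with those of WT females, both bred from heterozygous parents. In the HSD17B1-KI line, CRISPR/Cas9 editing replaced the active-site serine of HSD17B1 by alanine in the whole animal. HSD17B1 is the enzyme of granulosa cells that reduces estrone to estradiol. Each of the 8 WT and 7 HSD17B1-KI libraries was made from ovarian mRNA of 1 female aged 6 months, and all were labelled as estrus; how the stage of these females was read is not given in the sources used here. The Star-low and Star-high ovaries thus shared genotype, age, stage label and absence of treatment. The depth was 37515522 to 63201057 reads in the Star-low ovaries and 26544745 to 72362981 in the Star-high ovaries, and the mitochondrial share of reads was 2.85% to 3.11% and 2.66% to 3.29%.

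In the mouse, each cycle ends in ovulation at estrus, after which the granulosa and theca cells of the emptied follicle become a corpus luteum. Luteal cells take up and synthesize cholesterol, turn it into progesterone through STAR, CYP11A1 and HSD3B1, and carry receptors for luteinizing hormone, prolactin and prostaglandin F2 alpha. Corpora lutea of earlier cycles remain beside the new ones and regress gradually, so that an ovary holds follicles, luteal bodies and interstitial tissue at once. Growing follicles use other genes: the theca cells express Cyp17a1, the enzyme that makes androgens, and the granulosa cells express Fshr and Cyp19a1, the receptor for follicle-stimulating hormone and aromatase.

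Since Star chose the groups, every gene of the comparison is given as a description, with no test, and Star supports nothing. A gene was counted as higher or lower in the Star-low ovaries where the difference of the mean log2(normalized count + 1) between the groups was at least 1 and no Star-low ovary overlapped with any Star-high ovary. Differences below are Star-low minus Star-high on this log2 scale, which understates the change of genes with few counts. In bulk tissue, fewer cells of a type and less RNA per cell cannot be told apart. Values per ovary are normalized counts in the order WT 4, 7 and 8 for the Star-low group and WT 1, 2, 3, 5 and 6 for the Star-high group.

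The promoters of 2 genes that were lower and 2 that were higher in the Star-low ovaries are shown because their values below differ between the groups. They run from 250 bases before the RefSeq start of the gene to 50 after it (GRCm38.p6, minus strand, written 5′ to 3′). For Bhmt, GENCODE M21, the source of the gene positions below, starts the gene farther upstream, at 93637961, so that most of this window lies inside the gene by that annotation. Capitals mark the letters CAAGGNC, which are bound by the steroidogenic factor NR5A1 and its relative NR5A2. Bhmt lies at chr13:93637709-93638008, Akr1c18 at chr13:4150597-4150896, Grem1 at chr2:113758599-113758898 and Fshr at chr17:89200626-89200925.
Bhmt: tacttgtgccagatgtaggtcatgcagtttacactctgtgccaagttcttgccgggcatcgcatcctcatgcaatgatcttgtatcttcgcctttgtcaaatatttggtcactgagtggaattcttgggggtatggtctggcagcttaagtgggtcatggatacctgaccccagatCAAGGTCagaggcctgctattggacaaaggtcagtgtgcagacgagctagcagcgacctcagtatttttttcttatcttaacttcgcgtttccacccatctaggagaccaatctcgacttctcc
Akr1c18: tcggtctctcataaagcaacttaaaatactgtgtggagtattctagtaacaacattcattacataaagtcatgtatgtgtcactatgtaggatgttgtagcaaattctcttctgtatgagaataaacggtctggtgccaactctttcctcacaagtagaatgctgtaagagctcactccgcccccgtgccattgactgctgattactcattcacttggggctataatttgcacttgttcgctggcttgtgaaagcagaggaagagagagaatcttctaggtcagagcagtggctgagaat
Grem1: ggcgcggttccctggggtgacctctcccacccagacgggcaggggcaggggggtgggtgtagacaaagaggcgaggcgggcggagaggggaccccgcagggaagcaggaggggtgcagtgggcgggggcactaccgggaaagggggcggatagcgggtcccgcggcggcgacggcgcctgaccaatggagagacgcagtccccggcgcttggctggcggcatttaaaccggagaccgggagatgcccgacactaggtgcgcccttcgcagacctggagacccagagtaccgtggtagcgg
Fshr: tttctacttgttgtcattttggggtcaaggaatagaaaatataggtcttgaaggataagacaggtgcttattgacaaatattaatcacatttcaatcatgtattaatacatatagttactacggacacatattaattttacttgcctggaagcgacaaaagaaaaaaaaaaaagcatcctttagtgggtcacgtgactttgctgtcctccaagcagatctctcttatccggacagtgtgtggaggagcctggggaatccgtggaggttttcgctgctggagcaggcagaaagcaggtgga

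The Bhmt window held 1 match to CAAGGNC, and the other windows shown held none. Among the 418 genes lower in the Star-low ovaries, 261 had a promoter in the reference table, and 24.9% of these held CAAGGNC on either strand. The share was 17.7% for the 198 genes with a promoter among those higher in the Star-low ovaries and 17.8% for the 13734 with a promoter among all genes compared. The letters TGTGGT, bound by RUNX factors, were in 16.9%, 14.1% and 13.4% of the same promoters. The motifs do not overlap in letters, a match in the window is a description of sequence only, and no test was made.

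Genes were compared where the 8 WT ovaries averaged 2 or more normalized counts. Of these 21622 genes, 418 were lower in the Star-low ovaries, which is 1.93% of the genes compared, and 324 were higher, which is 1.5%. The median difference of all genes was 0.02. Without WT 1, the number of higher genes was 687 and that of lower genes 490. With WT 1 moved to the Star-low group, 4 ovaries against 4, 176 genes were lower and 486 higher, and 65 of the higher genes were shared with the 324; Bhmt, Ptgfr and Cyp17a1 were then no longer called because the groups overlapped, although their differences stayed at -5.12, -2.19 and 3.98. Cyp11a1 and Fshr were no longer called either, at -0.98 and 0.68. Many other genes named below also lost their call, among them Runx2, Sgk1, Apln, Grem1 and Sfrp4. In the lists for luteal cells, granulosa cells, and theca and interstitial cells, 0 genes were then called. This was also so for immediate early genes and for endothelium and angiogenesis. The medians of the luteal and granulosa lists were -0.98 and 0.66. Bhmt, Ptgfr, Cyp17a1, Cyp11a1 and Fshr all stayed called with WT 1 left out. Their calls were lost when WT 1, whose Star value was the lowest of its group, was counted as Star-low.

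The genes lower in the Star-low ovaries belonged in part to the list for luteal cells and to the pathway from cholesterol to progesterone. Cyp11a1 (chr9:58006411-58027023), whose product cleaves the side chain of cholesterol, had 154098, 181600 and 153420 normalized counts in the Star-low ovaries and 255925, 390701, 355274, 364342 and 327949 in the Star-high ovaries. The groups did not overlap, and the mean was 163039 ± 16077 (SD, n = 3) against 338838 ± 51487 (SD, n = 5), a difference of -1.05. This lies close to the border of the rule: without WT 2 the difference was -0.99, and with quantile normalization it was -0.67. Star itself differed by -2.62.

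**Figure D1:**
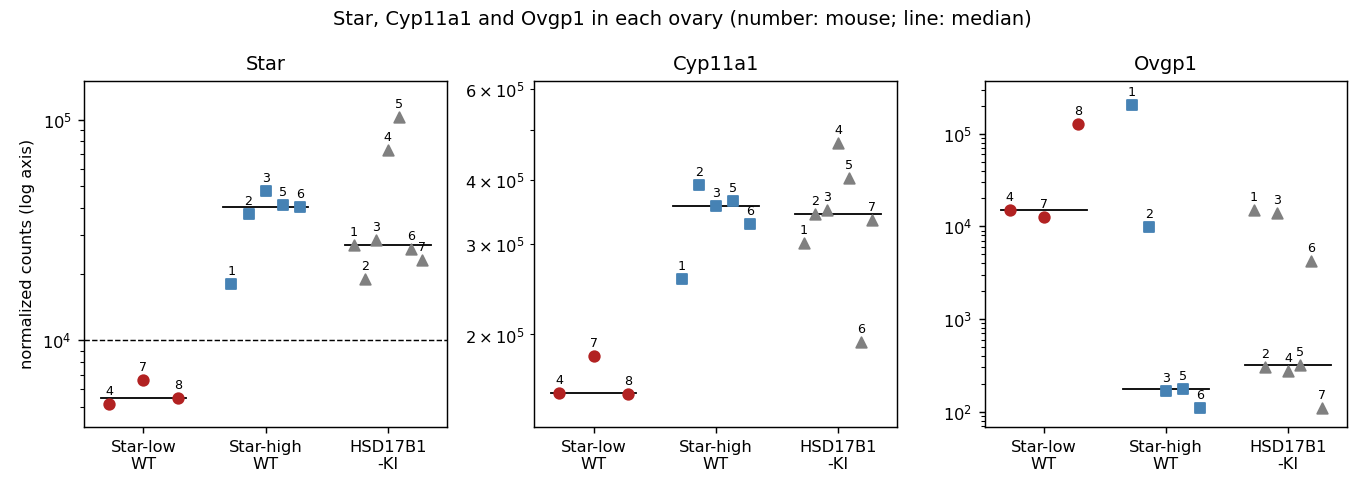
Normalized counts (log axis) of Star, Cyp11a1 and Ovgp1 in each ovary of the 3 Star-low WT, 5 Star-high WT and 7 HSD17B1-KI mice; each point is 1 ovary with the number of its mouse, the black lines are medians and the dashed line is the border of 10000 that chose the groups. Cyp11a1 did not overlap between the WT groups, whereas Ovgp1 did, with WT 1 of the Star-high group at 203321 and WT 8 of the Star-low group at 127890.

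Without Star, 11 genes of the list from cholesterol to progesterone were compared, and 3 were lower and 0 higher in the Star-low ovaries, with a median difference of -0.72. Fdxr, the reductase that feeds electrons to CYP11A1, stood at 17384, 14046 and 11578 in the Star-low group and at 22019, 31044, 46094, 24151 and 34084 in the Star-high group. Tspo, a cholesterol-binding protein of the outer mitochondrial membrane, stood at 1943, 1811 and 1447 against 3136, 2526, 5976, 2721 and 5381. Both were separated between the groups, and both dropped under the 2-fold border without WT 3 (-0.95 for Fdxr and -0.93 for Tspo) and without WT 8 (-0.96 and -0.98); for Tspo, this was also so without WT 6 (-0.97).

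Scarb1, the receptor that takes up cholesterol from high-density lipoprotein, and Fdx1, the electron carrier between FDXR and CYP11A1, did not overlap between the groups either, but their differences of -0.999 and -0.99 were just short of the rule. Hsd3b1, which makes progesterone from pregnenolone, had 250720, 326052 and 220594 normalized counts in the Star-low ovaries and 322274 to 425229 in the Star-high ovaries. Its groups overlapped through WT 7 and WT 1, with a difference of -0.55.

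Among 20 genes of cholesterol synthesis, 3 were lower and 0 higher, with a median of -0.34. The median depended on the Star-high ovaries: it was -0.22 without WT 2, -0.04 against WT 3 and WT 6 alone, and -0.59 against WT 1, 2 and 5 alone. Hmgcs1, the synthase ahead of HMG-CoA reductase, had 8431, 8714 and 9239 normalized counts in the Star-low ovaries and 18087, 31122, 26552, 27966 and 29493 in the Star-high ovaries. Dhcr7, the last reductase of the route, had 1949, 2157 and 2117 against 6824, 11074, 7154, 7836 and 5606. The Star-low ovaries were close to each other and every Star-high ovary was higher, 3.03-fold for Hmgcs1 and 3.71-fold for Dhcr7 in the ratio of means. The remaining gene, Fdps, which makes farnesyl diphosphate, differed by -1.08 and by -0.91 without WT 2.

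The list for luteal cells held 11 genes, of which 6 were lower and 0 higher, with a median of -1.18. The difference was negative for 9 of the 11 and positive for 2. The highest was 0.50 for Nr5a2, which encodes 1 of the factors that bind CAAGGNC. Ptgfr, the receptor through which prostaglandin F2 alpha ends luteal function, had 620, 501 and 1020 normalized counts in the Star-low ovaries and 5019, 13612, 1429, 8665 and 4148 in the Star-high ovaries. Akr1c18, whose enzyme inactivates progesterone in regressing corpora lutea, had 286, 65.0 and 188 against 983, 6803, 435, 600 and 377. Both genes were lowest in the Star-low ovaries and highest in WT 2, and they differed by -2.91 and -2.59. Reads of Akr1c18 may be shared with its close relatives in the Akr1c family, so its values are less certain.

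Sfrp4, a secreted Wnt antagonist, had 4083, 3615 and 4325 normalized counts in the Star-low ovaries and 15358, 38337, 6338, 23219 and 17026 in the Star-high ovaries. Parm1, a mucin-like membrane protein, differed by -1.37, and the cell cycle inhibitors Cdkn1b and Cdkn1a by -1.16 and -1.12. Cdkn1a was at -0.97 without WT 3 and at -0.86 without WT 7. The genes of this list that were not called included those for the receptors that keep the corpus luteum active. Lhcgr, the receptor for luteinizing hormone, had 9173, 6203 and 8208 against 18452, 35356, 9081, 34286 and 8251, and Prlr, the prolactin receptor, had 12757, 14895 and 12035 against 22435, 39159, 17418, 34323 and 17074. Lhcgr overlapped because WT 3 and WT 6 lay at the Star-low level, and Prlr did not overlap but differed by -0.90. In the list for steroid inactivation, 6 genes were compared, and Akr1c18 was the 1 lower gene, with 0 higher. The median was -0.08, which changed sign without WT 3 (0.03) or WT 8 (0.01). In this list, 2 genes were higher without overlap but under the 2-fold border, and the highest difference was 0.91, for Akr1c14. For comparison, 1491 of all 21622 genes were higher without overlap, whatever the size of the difference.

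**Figure D2:**
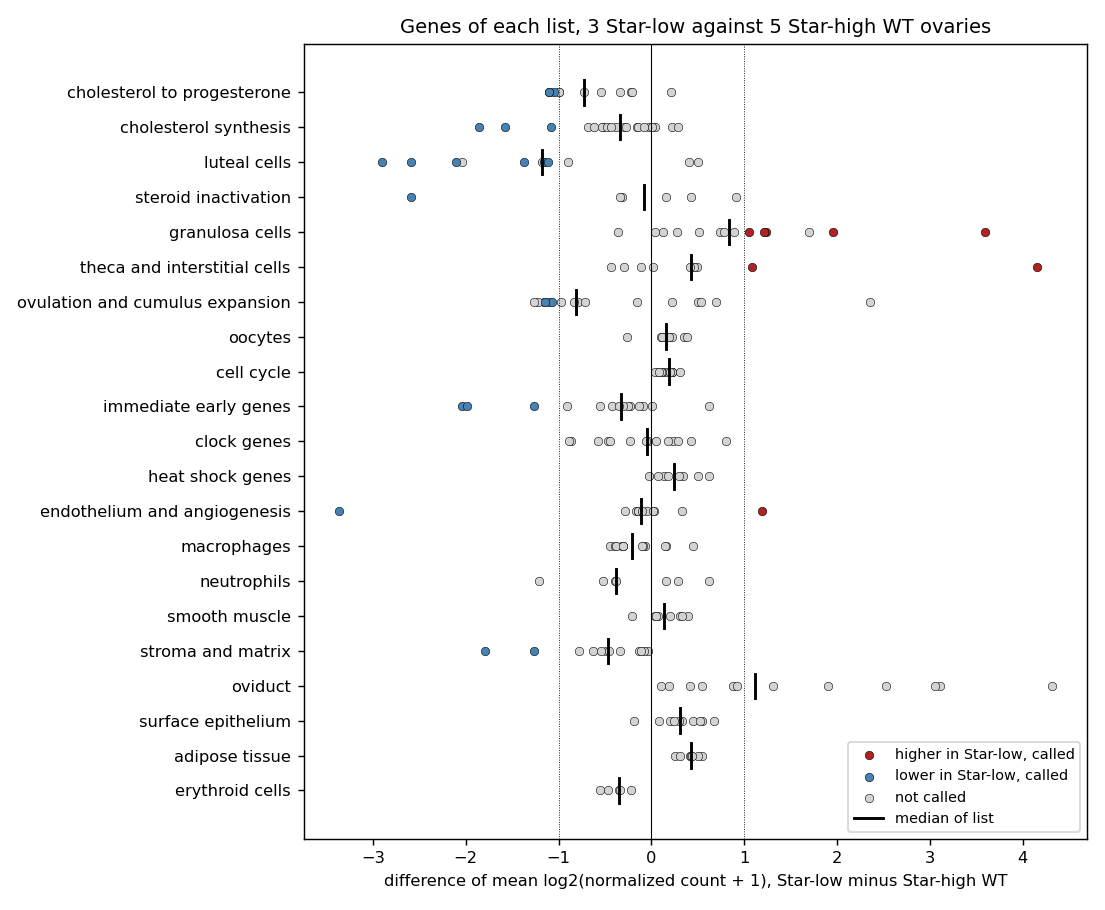
Difference of the mean log2(normalized count + 1), Star-low minus Star-high, for each gene of 21 marker lists (x axis; 1 point per gene, without Star), with the median of each list as a black bar and dotted lines at -1 and 1. Red and blue points are genes called higher and lower in the Star-low ovaries; the luteal list has a median of -1.18 and the granulosa list of 0.83, while the oviduct list, at 1.11, holds no called gene.

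Of the 15 genes with the lowest difference, Bhmt (chr13:93616675-93637961) led. It encodes betaine-homocysteine methyltransferase, which forms methionine from homocysteine. Bhmt had 19.9, 39.7 and 25.8 normalized counts in the Star-low ovaries and 6184, 10146, 2569, 7341 and 1088 in the Star-high ovaries, a difference of -7.21. The lowest Star-high ovary, WT 6, was thus far above the highest Star-low ovary, WT 7, and the means of 28.5 ± 10.2 (SD, n = 3) and 5466 ± 3657 (SD, n = 5) differed 192-fold.

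Cyp11b1, the 11 beta-hydroxylase known from the adrenal cortex, had 2.85, 13.2 and 5.73 normalized counts against 195, 79.6, 1213, 160 and 2325, with a difference of -5.70. Kcnj16, a subunit of an inwardly rectifying potassium channel, had 9.26, 4.82 and 1.91 against 424, 863, 81.4, 576 and 88.7, with a difference of -5.62. The tight junction gene Cldn18 had 4.27, 2.41 and 1.91 against 61.1, 191, 380, 120 and 297. All 3 were near the lower limit of counting in the Star-low ovaries, so that the size of their differences is imprecise, but the order of the ovaries within the Star-high group differed: Cyp11b1 and Cldn18 were highest in WT 3 and WT 6, and Kcnj16 in WT 1, 2 and 5.

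Mmel1, a membrane metallopeptidase, had 60.6, 48.2 and 35.3 normalized counts in the Star-low ovaries against 2366, 5651, 937, 3449 and 553. Plin5, which coats lipid droplets, had 65.5, 134 and 338 against 4233, 4981, 1433, 3974 and 1049. These genes shared with Bhmt and Kcnj16 the order within the Star-high group, with WT 1, 2 and 5 above WT 3 and 6. Adcyap1, which encodes the neuropeptide PACAP, had 82.6, 126 and 27.7 against 619, 404, 2513, 614 and 2190, and the Wnt ligand Wnt10a had 52.7, 20.5 and 6.68 against 129, 120, 716, 232 and 810. The last pair had the opposite order, with WT 3 and 6 highest. The other genes named by the rule were Fosl1, a partner of JUN proteins in AP-1, Ly6k, Bpifb6, Fer1l4, Etos1, Slc36a3 and Ssu2, with differences from -4.43 for Fosl1 to -3.82 for Ssu2.

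A pair of genes outside these lists, chosen after their values were seen, also differed. Runx2, a RUNX transcription factor, had 558, 640 and 681 normalized counts in the Star-low ovaries and 8839, 15149, 5785, 11381 and 5567 in the Star-high ovaries, a difference of -3.79. Sgk1, a kinase induced by steroids and serum, had 1960, 2022 and 2247 against 18002, 28021, 13014, 23337 and 14326, a difference of -3.16. In both, the Star-low ovaries lay within a narrow range far under the lowest Star-high ovary.

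**Figure D3:**
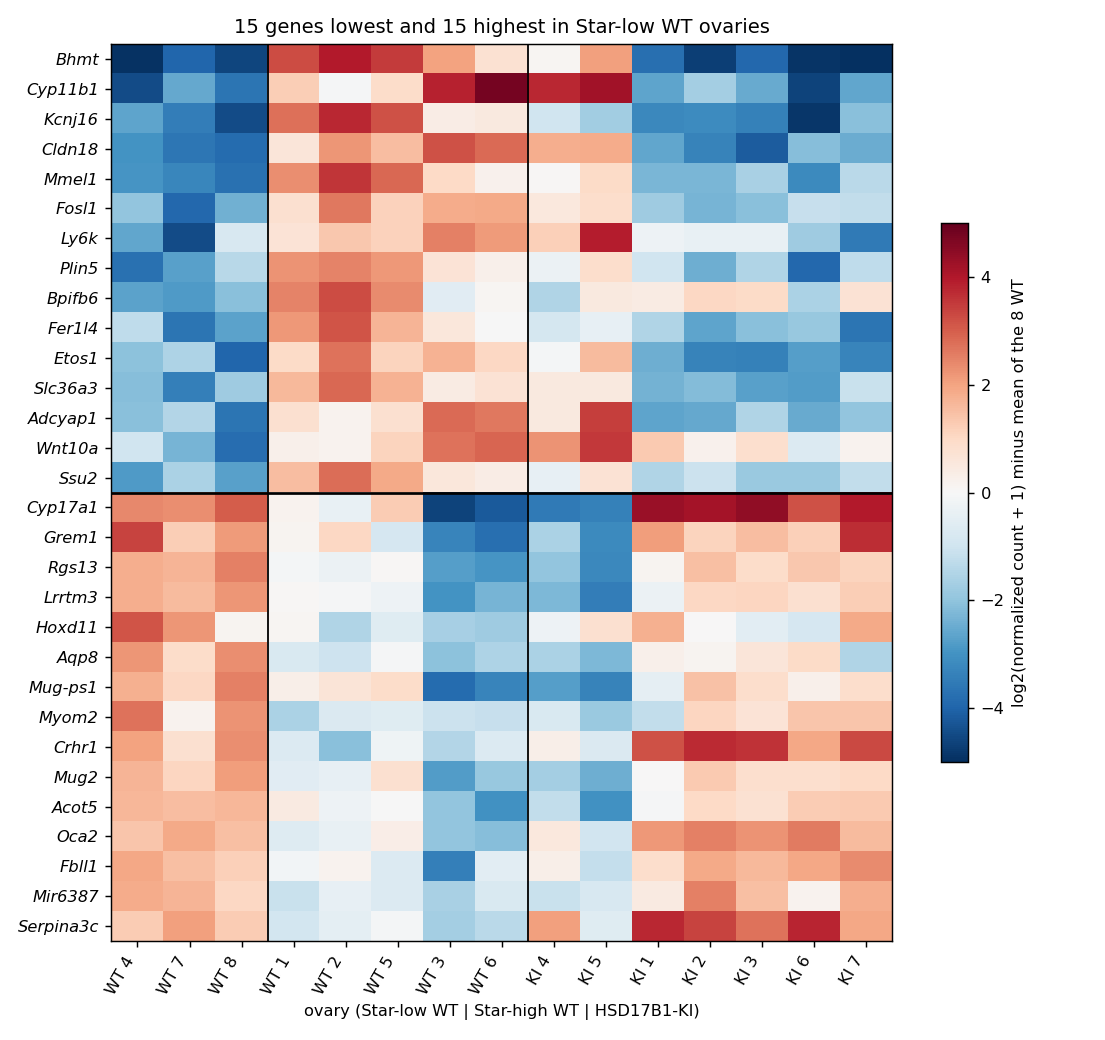
log2(normalized count + 1) minus the mean of the 8 WT ovaries (colour, capped at -5 and 5) of the 15 genes with the lowest and the 15 with the highest difference, in 15 ovaries (columns; KI is HSD17B1-KI). The WT groups are separated by the choice of genes; among the ovaries that did not choose them, KI 4 and KI 5 were high for Bhmt, at 691 and 2655 normalized counts, and the other 5 HSD17B1-KI ovaries were at 9.76 to 46.5.

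The genes higher in the Star-low ovaries included some of the lists for theca and granulosa cells. Cyp17a1 (chr19:46667165-46673172) had 14130, 13298 and 21605 normalized counts in the Star-low ovaries and 2967, 2033, 107, 6322 and 141 in the Star-high ovaries. The mean was 16345 ± 4575 (SD, n = 3) against 2314 ± 2558 (SD, n = 5), 7.06-fold higher, and the difference of the mean log2 values was 4.15, the highest among the called genes named. WT 3 and WT 6 were far under the other Star-high ovaries.

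In the list for theca and interstitial cells, 2 of 10 genes were higher and 0 lower, with a median of 0.43. The other called gene was Hhip, which binds hedgehog ligands, at 495, 607 and 489 against 217, 332, 143, 371 and 245; its difference of 1.09 was 0.89 without WT 3 and 0.98 without WT 7. Insl3, a hormone of theca cells, had few counts in both groups, 18.1 to 37.0 against 22.5 to 30.5, and differed by -0.12. Aldh1a1, an enzyme of retinoic acid synthesis, stood at 124609 to 131407 against 73843 to 120430 and differed by 0.46. The higher Cyp17a1 was therefore not accompanied by a like difference in the other genes of the list.

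In the list for granulosa cells, 5 of 14 genes were higher and 0 lower, with a median of 0.83. Fshr had 2408, 2092 and 1710 normalized counts in the Star-low ovaries and 623, 856, 1145, 1095 and 762 in the Star-high ovaries, 2.31-fold higher in the ratio of means. Esr2, the estrogen receptor of granulosa cells, had 8406, 9195 and 7935 against 3269, 3972, 2821, 5523 and 3287. Cyp19a1 had 6444, 1659 and 1868 against 689, 742, 812, 857 and 466, so that WT 4 stood well above the rest of its group. The gap junction gene Gja1, with 121640, 126089 and 85015 against 38830 to 71655, differed by 1.05 and fell under the border without WT 3, 4, 6 or 7, at 0.94 to 0.97.

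Grem1, an antagonist of bone morphogenetic proteins made by cumulus and granulosa cells, had 4257, 945 and 1794 normalized counts against 451, 829, 40.7, 226 and 28.7, a difference of 3.59. Inha, the alpha subunit of inhibin, did not overlap between the groups, at 86363 to 131419 against 50696 to 65440, but differed by 0.89. Inhba, the subunit of activin A, overlapped through WT 8, at 5596, and WT 2, at 5961. Amh, the hormone of small growing follicles, overlapped widely, at 5131 to 13527 against 5626 to 10616, with a difference of 0.12.

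The remaining genes with the highest difference were Rgs13, Lrrtm3, Hoxd11, Aqp8, Mug-ps1, Myom2, Crhr1, Mug2, Acot5, Oca2, Fbll1, Mir6387 and Serpina3c, at 2.44 to 3.22. Rgs13, a regulator of G protein signalling, had 677, 618 and 1077 normalized counts against 177, 155, 27.5, 197 and 23.7. Oca2, known as a melanosomal transport protein, had 746, 1045 and 807 against 178, 220, 71.5, 354 and 63.7. Each of these was again lowest in WT 3 and WT 6. Mug-ps1, Mug2 and Serpina3c belong to families of near-identical copies, and their counts may be split among relatives.

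WT 3 and WT 6 thus stood apart from WT 1, 2 and 5 within the Star-high group, although Star did not separate them (47695 and 40363 against 18097, 37296 and 41061). This was noticed after the data were seen and is given as values only. Adamts1, a protease of the ovulating follicle induced by progesterone receptor, had 16245 and 25362 normalized counts in WT 3 and WT 6, 2551 to 2866 in WT 1, 2 and 5, and 2580 to 2847 in the Star-low ovaries. Runx1 had 10384 and 9579 in the former, 2892 to 3535 in WT 1, 2 and 5, and 2108 to 2627 in the Star-low ovaries. Timp1, an inhibitor of matrix metalloproteases, had 8565 and 9611 against 1380 to 2762 and 881 to 1354.

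WT 1, 2 and 5 were in turn higher in some genes of the list for luteal cells. Hsd17b7, an enzyme of luteal cells that can make estradiol and also serves cholesterol synthesis, had 8396, 24466 and 15680 normalized counts in WT 1, 2 and 5, but 1266 and 1815 in WT 3 and WT 6, close to the 1336 to 1556 of the Star-low ovaries. Lhcgr behaved alike, at 18452 to 35356 in WT 1, 2 and 5, at 9081 and 8251 in WT 3 and WT 6, and at 6203 to 9173 in the Star-low ovaries. With Hsd17b7 and Lhcgr, the Star-low ovaries were thus close to WT 3 and WT 6, and with Adamts1 and Runx1 they were close to WT 1, 2 and 5. In Bhmt, Runx2, Sgk1 and Apln they were under both, as they were in Runx1. For a gene called lower, the rule itself requires the Star-low ovaries to lie under every Star-high ovary.

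The list for ovulation and cumulus expansion had 0 higher and 2 lower genes of 16, Runx1 and Tnfaip6, with a median of -0.81. Tnfaip6, which links hyaluronan in the cumulus matrix, had few counts, 21.7 to 29.6 in the Star-low and 32.2 to 71.5 in the Star-high ovaries. Ptgs2, the cyclooxygenase induced before ovulation, had 76.2, 8.43 and 177 against 64.5, 16.8, 61.6, 25.2 and 81.2 and overlapped. Edn2, an endothelin of the rupturing follicle, was highest in WT 6 and WT 3, at 350 and 244, and stood at 46.8 to 49.2 in the Star-low ovaries, within the range of the other Star-high ovaries. Runx1 was at -0.90 without WT 3 and at -0.92 without WT 6, and Tnfaip6 at -0.96 to -0.98 without WT 3, 6 or 7.

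Among the lists for vessels and matrix, Apln stood out. The gene for the peptide apelin, which acts on endothelial cells, had 230, 306 and 241 normalized counts in the Star-low ovaries and 2417, 3148, 2890, 2600 and 2299 in the Star-high ovaries, 10.3-fold higher, with little spread within either group. Angpt2, the ligand of TIE2 that loosens vessels, was higher in the Star-low ovaries, at 2234, 3016 and 1789 against 726 to 1402; without WT 7 its difference was 0.99. These were the only called genes of 12 for endothelium and angiogenesis, and the median of the list was -0.11, at -0.23 without WT 7 and 0.01 without WT 4. In the list for stroma and matrix, 2 of 12 genes were lower and 0 higher, with a median of -0.47: Timp1 and Mmp19, a matrix metalloprotease, which stood at 696 to 755 against 1106 to 3300. The call of Timp1 depended on the scaling, since WT 4 and WT 1 differed little (1354 and 1380) and overlapped under the other scalings tried. Against WT 1, 2 and 5 alone, Timp1 and Mmp19 were not called, at -0.88 and -0.71. The stroma and matrix list then had 0 lower genes and a median of -0.22. Against WT 3 and WT 6 alone, it had 5 lower genes and a median of -0.86.

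Of 14 immediate early genes, which respond quickly to stimulation and also to handling of tissue, 3 were lower in the Star-low ovaries and 0 higher, with a median of -0.33, which was -0.18 without WT 5 and -0.50 without WT 3 or WT 7. Nr4a1 had 1162, 1223 and 999 normalized counts against 4937, 5725, 3064, 9090 and 2697, Dusp1 had 537, 691 and 488 against 1045 to 4873, and Junb had 841 to 890 against 1560 to 3334. The best-known member, Fos, had 737 to 860 against 197 to 1698 and overlapped, with a positive difference of 0.62. Against WT 3 and WT 6 alone, Fos was called higher, at 1.93. Junb and Dusp1 were not called there, at -0.85 and -0.91. The median of the list was -0.08 against these 2 ovaries and -0.63 against WT 1, 2 and 5 alone. The part of tissue handling in these values was not tested.

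No gene was called in the lists for oocytes (12 genes, median 0.16), cell cycle (14, 0.19), heat shock (8, 0.24), macrophages (12, -0.20), smooth muscle (8, 0.13), surface epithelium (10, 0.31) and clock genes (14, -0.05). The same held for neutrophils (7 of 9 compared, -0.38), adipose tissue (7 of 8, 0.43) and erythroid cells (5 of 6, -0.34). Several of these medians moved with single ovaries: oocytes to -0.04 without WT 4 and erythroid cells to -0.07 without WT 5. Without WT 8, heat shock moved to 0.05, surface epithelium to 0.12 and adipose tissue to 0.72. Cell cycle moved up to 0.42 without WT 8, but down to 0.04 without WT 4 and 0.06 without WT 7. The oocyte list summed to 10958 to 18023 normalized counts in the Star-low and 10971 to 12697 in the Star-high ovaries. In the clock list, 4 of 14 genes did not overlap between the groups but stayed under the 2-fold border, 2 of them higher and 2 lower. Among all 21622 genes compared, 1491 were higher and 1880 lower without overlap, whatever the size of the difference. The output gene Dbp, at 1791 to 2099 against 2490 to 5240, and Arntl, which encodes the activator BMAL1, were lower, with differences of -0.87 and -0.44. Without WT 8, 1 gene of the list was called lower. Ciart, a repressor of the clock, at 222 to 320 against 109 to 210, and Tef, a relative of Dbp, were higher, with differences of 0.81 and 0.18.

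The ovaries also differed in genes of the oviduct, the tube that lies against the ovary and is easily taken with it. Ovgp1, a glycoprotein secreted by the oviduct, had 14952, 12695 and 127890 normalized counts in the Star-low ovaries and 203321, 9803, 166, 178 and 110 in the Star-high ovaries. The groups overlapped: WT 1 had the highest value of all, and WT 2 was close to WT 4 and WT 7. The difference of 4.31 therefore rested on WT 3, 5 and 6, and without WT 1 the groups did not overlap, at a difference of 6.09.

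All 12 genes of the oviduct list had a positive difference, with a median of 1.11, and 0 of 12 were called. This median depended on single ovaries: it was 2.01 without WT 4, 1.85 without WT 1 (1 gene called) and 0.43 without WT 8. It was 0.63 for ratios of means, and against WT 3 and WT 6 alone it was 2.54, with 7 genes called. The list summed to 19300 to 167630 in the Star-low ovaries, 2416 to 246792 in the Star-high ovaries and 2845 to 34156 in the HSD17B1-KI ovaries. Foxj1, the factor of ciliated cells, had 118, 1583 and 9230 against 9884, 1721, 4.40, 23.6 and 22.5, and Pax8, a factor of the oviductal epithelium, had 331, 95.1 and 1870 against 2293, 126, 15.4, 26.7 and 9.99. WT 1 and WT 8, 1 ovary of each group, were highest for both. The gene for progesterone receptor, Pgr, which oviduct also expresses, was also highest in these 2 ovaries, at 466, 378 and 1653 against 845, 105, 52.8, 127 and 57.5.

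Without WT 1 and WT 8, the ovaries with most Ovgp1, 577 genes were lower and 728 higher in the Star-low ovaries. Since each group then loses an ovary, fewer values can overlap. In a principal component analysis of 18153 genes over the 8 WT ovaries, the first component held 62.3% of the variance. It had WT 1 and WT 8 at one end (104.6 and 98.8) and WT 3, WT 6 and WT 5 at the other (-81.1, -77.6 and -63.7). WT 2, WT 4 and WT 7 lay between them (8.3, -9.5 and 20.2). The second held 13.3%, with the Star-low ovaries at 17.9 to 56.8, WT 5 at 0.92 and the other Star-high ovaries under 0. The part of the oviduct in the genes called was not tested.

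The 7 HSD17B1-KI ovaries did not choose the groups. Their Star values fell into separate clusters, HSD17B1-KI 4 and 5 (KI 4 and KI 5 below) at 73441 and 103552 and the other 5 at 18934 to 28525, so no correlation with Star was computed and the values are described. All 7 were above the border of 10000. KI 4 and KI 5 were set against the other 5 with the same rule for calling genes, so that Star chose this split too. Of 21316 genes, 662 (3.11%) were higher in the pair and 776 (3.64%) lower. KI 1, one of the 5, had a mitochondrial share of reads of 6.41%, the highest of the 15 ovaries.

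Of the 404 genes that were lower in Star-low WT ovaries and compared in both genotypes, 202 were higher in KI 4 and KI 5. This is 50% of the WT genes and 31.3% of the 646 HSD17B1-KI genes, and 3 of the 404 had the opposite direction. Of the 320 genes higher in Star-low WT ovaries, 198 were lower in KI 4 and KI 5, which is 61.9% of the WT genes and 26.2% of the 756 HSD17B1-KI genes, and 1 had the opposite direction. No ovary entered both comparisons, but Star chose the groups in both, so the shared genes are a description and not a test.

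Single genes show how the ovaries compared. Bhmt had 691 and 2655 normalized counts in KI 4 and KI 5 and 9.76 to 46.5 in the other 5, next to the 19.9 to 39.7 of the Star-low WT ovaries. Cyp17a1 had 224 and 254 in KI 4 and KI 5, close to the 107 and 141 of WT 3 and WT 6, and 24106 to 56551 in the other 5, above every WT ovary. Adamts1 had 13397 and 7736 in KI 4 and KI 5 and 1495 to 2662 in the other 5. In these 3 genes, KI 4 and KI 5 were nearer on the log scale to WT 3 and WT 6 than to WT 1, 2 and 5.

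**Figure D4:**
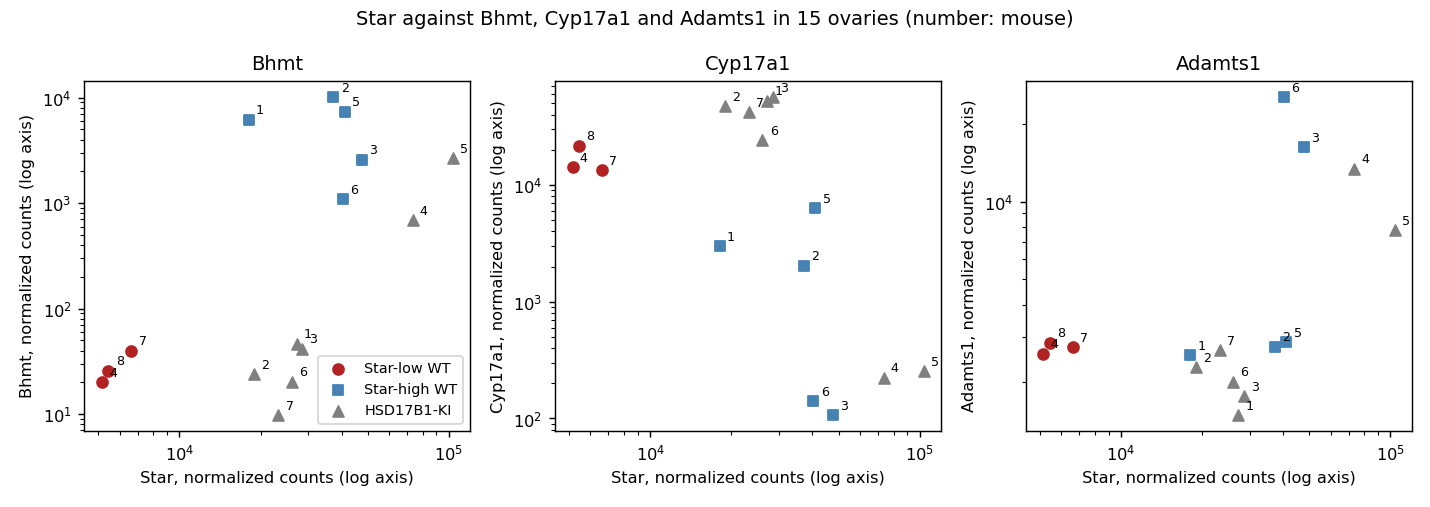
Normalized counts of Star (x, log axis) against Bhmt, Cyp17a1 and Adamts1 (y, log axes) in 15 ovaries, labelled with the number of the mouse; red circles are Star-low WT, blue squares Star-high WT and grey triangles HSD17B1-KI. For Bhmt, 5 HSD17B1-KI ovaries lie at the level of the Star-low WT ovaries although their Star values, 18934 to 28525, overlap with the Star-high range.

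The other 5 HSD17B1-KI ovaries did not match the Star-low WT ovaries in every gene. Cyp11a1 stood at 193411 to 349689 in them, above the Star-low WT range of 153420 to 181600. Sfrp4 stood at 12008 to 54287 against 3615 to 4325, and Lhcgr at 19821 to 44182 against 6203 to 9173. Runx2, in contrast, stood at 589 to 2085 and Apln at 509 to 1402, under every Star-high WT ovary. Genotype and Star group cannot be told apart in these values, since no HSD17B1-KI ovary was Star-low by the rule.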

How the data were processed

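Ovarian mRNA of 8 WT and 7 HSD17B1-KI females was sequenced, 1 library per mouse, with a stranded poly(A) kit. The authors trimmed the reads, aligned them with STAR 2.7.3 to mm10, and deposited a table of gene counts divided by size factors (a normalized signal) for 27907 genes; the counting program and the annotation release are not given in the sources used here. Dividing by the smallest step of each library gave whole reads for 100% of values (within 0.01), from which depth was taken. Gene positions are from GENCODE M21, which held 27533 of the gene identifiers.

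Values were analysed as log2(normalized count + 1) where the 8 WT averaged 2 or more (Python 3.11.15, NumPy 2.4.6, pandas 2.3.3). As Star defined the groups, no test was run and no count model fitted; the slope on Star planned for the 7 HSD17B1-KI ovaries was not run, because the largest gap of their log2 Star values, 1.36, was more than 50% of the range of 2.45. The calling rule was run on counts simulated around a common mean per gene, without shared differences between ovaries such as those in oviduct genes. That run checked the code only and does not bear on the genes called. Named genes were Star, Cyp11a1, Ovgp1, members of 21 marker lists, and the 15 highest and 15 lowest differences among called genes with a mean of at least 10, without unnamed gene models. Groups, members and lists were chosen with earlier results of these data known. Alternatives were other pseudocounts, filters, scalings (edgeR 4.0.16 for TMM), borders and leaving out ovaries. The labels do not name a batch, and each replicate is a separate mouse.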

Additional observations from a re-analysis of the deposited data

Results flagged for a closer look

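In 237 groups of 4 to 10 values of the genes named, 4 held an ovary far from the rest of its group by Dixon's criterion at 95%; chance alone marks about 1 in 20 groups. Star was at 18097 normalized counts in WT 1, the lowest of the Star-high WT ovaries. Because Star itself formed this group, its flag is given as a value only and supports nothing. Fbll1 was at 0 in WT 3, the lowest of the same group. Among the HSD17B1-KI ovaries, Junb was at 4651 in KI 6, the highest, and Serpina3c at 393 in KI 5, the lowest.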

How the results depend on the processing

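Of the 2 counts, 324 genes higher and 418 lower in the Star-low ovaries, the higher genes were 195 with a pseudocount of 10, 1787 with WT 3 and WT 6 alone as the Star-high group, 728 without the 2 ovaries with most Ovgp1 and 307 to 687 when 1 ovary was left out, 687 being without WT 1. The lower genes were 176 for the 4 ovaries with least Star against the 4 with most (which places WT 1 with the Star-low ovaries), 853 with WT 3 and WT 6 alone and 445 to 550 when 1 ovary was left out. Fewer ovaries leave fewer chances to overlap; the other causes were not tested. The 2 Star-high subsets and the subset without most Ovgp1 were chosen after seeing the data. The higher genes were 486 for the 4 ovaries with least Star against the 4 with most, of which 65 were among the 324. In all other settings (WT 1, 2 and 5 alone, TMM, upper quartile or quantile scaling, other filters, a pseudocount of 0.1, a ratio of means), both counts stayed within 1.5 times the main ones. No gene named in the text reversed direction in a called difference. No paired analysis was possible because all 8 ovaries compared carry the same label and their numbers only name single mice. The planned fits over the HSD17B1-KI ovaries (limma, edgeR, DESeq2 and exact permutation) were not run, since their Star values formed separate clusters. Genes with few counts in the Star-low ovaries, such as Kcnj16 and Cldn18, have imprecise differences.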
